A study of Homo sapiens with 3 samples.

Results

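The tumor necrosis factor (TNF) superfamily is a family of signalling ligands and the receptors that bind them, and the TNF receptor associated factors (TRAFs) are the adaptor proteins that many of these receptors recruit inside the cell. The levels of these genes were examined in LX-2 cells treated with rhFGF19, using every gene whose symbol is a TNFSF or TNFRSF number, TNF, LTA, LTB, LTBR, FAS, CD27, CD40, CD70, NGFR or TRAF1 to TRAF6. The rule found 44 genes among the 26108 genes of the deposited table, namely 13 ligands, 7 receptors with a death domain, 4 decoy receptors, 14 other receptors and 6 TRAFs. FASLG, CD40LG, TNFSF11, TNFSF14 and TNFRSF4 were not analysed here.

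LX-2 is a widely used line of human hepatic stellate cells, the main source of fibroblasts in the injured liver. FGF19 is a hormone of the fibroblast growth factor family, and rhFGF19 is its recombinant human form. Messenger RNA was sequenced from 1 vehicle culture, 1 culture given 50 ng/mL (the lower dose) and 1 culture given 100 ng/mL (the higher dose), all from this single line. Stimulation lasted 24 h by the series design but 72 h and 73 h by the descriptions of the treated cultures, which also swap the doses, and the doses used here are those of the sample titles. With 1 library per condition there was no replicate check, no test was possible, and the effect of rhFGF19 cannot be told apart from any other difference between the vehicle library and the treated libraries. Levels are FPKM, in which the fragments of a gene are divided by its transcript length and by the library total. The unit keeps no counts, and so the sequencing depth and the counting error are unknown.

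Ligands of this superfamily are mostly trimers held at the cell surface or shed from it, and each brings together several receptor chains. Receptors such as FAS, TNFRSF1A and TNFRSF10B carry a death domain through which they can assemble caspase-activating complexes, whereas receptors such as CD40, TNFRSF1B and LTBR bind TRAFs directly and signal mainly to NF-kappaB and stress kinases. Decoy receptors bind ligand without passing on a full signal. In the liver, the family is known for its parts in hepatocyte death, inflammation and the survival of activated stellate cells.

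The line's stellate or fibroblast identity was checked with 13 markers, of which 9 had a mean of at least 0.5 FPKM. VIM was at 438.65 FPKM in the vehicle library, 654.31 at the lower dose and 648.66 at the higher dose, and COL1A1 at 78.35, 107.83 and 104.14. TAGLN was at 222.65, 118.02 and 125.65 FPKM and TIMP1 at 308.41, 183.64 and 192.97. Of the 9 markers, 5 were above vehicle at both doses and 4 below, these being TAGLN, TIMP1, THY1 and ACTA2. COL1A2 did not exceed 0.14 FPKM, LUM 0.04 and DES 0.08, and LRAT was listed at 0 in all 3 libraries. The summed level of the 13 markers was 1132.27 FPKM in the vehicle library and 1174.88 and 1183.87 in the treated libraries. Markers of leukocytes, which are rich in many of the family's genes, were low but not all at 0. The 1 T cell marker listed, CD3D, was at 0.98, 0.47 and 0.14 FPKM, the 2 B cell markers listed summed to 9.79, 5.36 and 6.05 FPKM, mostly from CD79B, and the 4 myeloid markers listed summed to 5.45, 3.34 and 3.20. All 3 of these sums were highest in the vehicle library, and their part in the results was not tested. The 4 hepatocyte markers summed to 11.29, 12.46 and 11.44 FPKM, no endothelial marker exceeded 0.58 FPKM, and neither epithelial marker listed exceeded 0.11.

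The promoters of 3 members are shown because they were the only ones, among the 31 members with a promoter in the RefSeq table, that held the NF-kappaB letters GGGNNTTTCC, and NF-kappaB is the transcription factor to which most of these receptors signal. The other 13 members, among them CD40, TNFRSF10B and TNFRSF12A, had no promoter there, and no other letters for NF-kappaB were searched. Each promoter shown covers 250 bases before and 50 after the RefSeq start of the gene on GRCh38.p14, and capitals mark the motif letters found. The letters GGGNNTTTCC were searched on both strands and were present in 1.91% of all 35116 RefSeq promoters and in 4 of the 42 member promoters. Of these 4, 2 are overlapping promoters of LTB, with starts at 31582424 and 31582425, that hold the same match, so the 4 promoters belong to 3 genes. TTCNNNGAA, the STAT letters, were in 7.66% of all promoters and in those of LTA, LTB and TNFRSF9, and TGANTCA, the AP-1 letters, were in 7.71% and in those of CD27, FAS, TNFRSF8, TNFRSF9 and TNFSF15. Both of these read alike on either strand, and no match marked in the sequences overlapped another. TNFRSF9, the receptor also called 4-1BB, held all 3 motifs at chr1:7940790-7941089 on the minus strand, in the order STAT, NF-kappaB and AP-1, and its RefSeq start lay 2326 bases from the start in the deposited table.
TNFRSF9: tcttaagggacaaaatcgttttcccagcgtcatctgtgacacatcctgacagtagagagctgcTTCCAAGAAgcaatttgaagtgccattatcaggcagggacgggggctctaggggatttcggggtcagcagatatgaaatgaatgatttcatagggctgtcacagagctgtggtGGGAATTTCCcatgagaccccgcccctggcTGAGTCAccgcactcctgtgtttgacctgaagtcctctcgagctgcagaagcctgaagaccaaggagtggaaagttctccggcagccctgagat
TRAF3, the adaptor that restrains the non-canonical NF-kappaB pathway, held the NF-kappaB letters 33 bases before its start, at chr14:102777199-102777498 on the plus strand, in a window of 86% GC.
TRAF3: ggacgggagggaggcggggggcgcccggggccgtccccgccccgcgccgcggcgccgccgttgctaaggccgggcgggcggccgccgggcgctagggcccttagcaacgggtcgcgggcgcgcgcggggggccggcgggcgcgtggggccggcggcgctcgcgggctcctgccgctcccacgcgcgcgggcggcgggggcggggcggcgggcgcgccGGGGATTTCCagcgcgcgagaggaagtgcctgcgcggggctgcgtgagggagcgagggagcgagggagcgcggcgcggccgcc
LTB, the membrane anchor of lymphotoxin, held the NF-kappaB letters on the reverse strand 87 bases before its start and the STAT letters 166 bases before it, at chr6:31582375-31582674 on the minus strand.
LTB: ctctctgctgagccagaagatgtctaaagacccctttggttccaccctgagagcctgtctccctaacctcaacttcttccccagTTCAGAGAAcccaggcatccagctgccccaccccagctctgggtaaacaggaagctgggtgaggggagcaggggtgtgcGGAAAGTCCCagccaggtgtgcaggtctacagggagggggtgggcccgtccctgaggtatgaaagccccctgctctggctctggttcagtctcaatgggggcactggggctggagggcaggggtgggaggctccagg
A match is a description of the letters and not evidence of binding. As given below, TNFRSF9 was higher than vehicle at both doses, TRAF3 was higher, and LTB was lower from a low level.

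Of the 44 genes, 26 had a mean of at least 0.5 FPKM over the 3 libraries and were compared as log2(FPKM + 0.1), a scale on which changes of low genes come out too small. These were 4 ligands, all 7 death domain receptors, 2 decoy receptors, 9 other receptors and 4 TRAFs, and 20 of them had a mean of at least 1 FPKM. At the lower dose, 5 of the 26 genes were more than 2-fold above vehicle, a share of 19.2%, whereas 39.4% of all 12447 compared genes were. In RNA from a whole culture, fewer cells with a transcript and less of it per cell cannot be told apart. At 100 ng/mL, 6 genes or 23.1% were, against 38.5% of all compared genes. None of the 26 was more than 2-fold below vehicle at either dose, where 1.78% and 1.58% of all compared genes were. Other settings changed these counts. Under quantile normalization, 0 were higher and 3 lower at each dose, where 9.49% and 8.68% of all compared genes were higher and 9.94% and 9.22% lower. With a trend on transcript length removed, 2 and 0 were higher and 9 and 6 lower. Of all compared genes, 14.1% and 13.6% were then higher and 16.4% and 15.3% lower. FAS, TNFRSF10D, TNFRSF19 and TNFRSF9 were past 2-fold at both doses, as were 36.1% of all compared genes, and both treated libraries were set against the same vehicle library. The median log2 fold change of the 26 genes was -0.17 at the lower dose and -0.13 at the higher dose, and that of all compared genes was 0.62 and 0.61. By any amount, 11 of the 26 were above vehicle at both doses and 14 below it, against 63.1% and 31.9% of all compared genes.

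**Figure D1:**
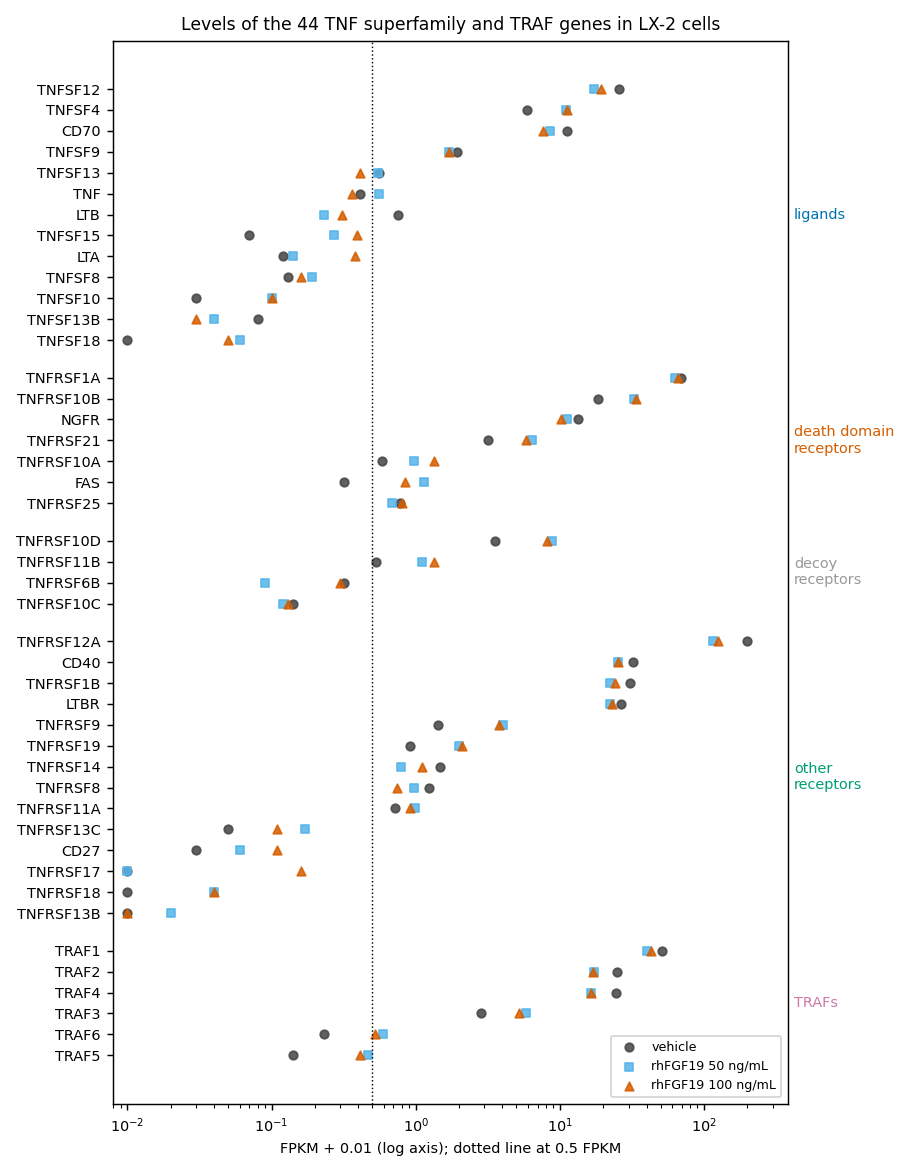
FPKM + 0.01 of the 44 genes on a log axis, by role, with 1 point per library (circle, vehicle; square, 50 ng/mL; triangle, 100 ng/mL) and a dotted line at 0.5 FPKM. The treated libraries lie close together for most genes above 1 FPKM, and TNFRSF12A is the most abundant gene of the family in all 3 libraries.

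Among the ligands, TNFSF12 was the most abundant, and TNFSF4 was the only one of the 4 compared that was higher with rhFGF19. TNFSF12 (TWEAK, chr17:7549058-7557890), a ligand linked to tissue repair and inflammation, was at 25.90 FPKM in the vehicle library, 17.35 at the lower dose and 19.36 at the higher dose. Both treated libraries were below vehicle, with log2 fold changes of -0.58 and -0.42. CD70, the ligand of CD27, a costimulatory receptor of lymphocytes, was at 11.15, 8.47 and 7.59 FPKM, also lower in both treated libraries, by log2 fold changes of -0.39 and -0.55. TNFSF9, the ligand of TNFRSF9, was at 1.93, 1.69 and 1.68 FPKM, with log2 fold changes of -0.18 and -0.19. TNFSF4 (OX40 ligand, chr1:173183731-173207331), a T cell costimulator, was at 5.95 FPKM in the vehicle library and at 11.03 and 11.19 in the treated libraries. Its log2 fold changes were 0.88 and 0.90, and it had the lowest transcript GC content of the 26 genes, 39.9%. The median log2 fold change of the 4 ligands was -0.29 at the lower dose and -0.30 at the higher dose, and it stayed below 0 under each rescaling of the libraries, but was 0.13 and -0.15 over all 13 ligands. TNFSF12 shares a strand and bases with the readthrough gene TNFSF12-TNFSF13, which was at 4.16, 2.94 and 3.18 FPKM, so fragments may be split between them.

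The other 9 ligands averaged under 0.5 FPKM and were not compared further, and no value of theirs exceeded 0.75 FPKM in any library. TNF, the family's founding cytokine, was at 0.40 FPKM in the vehicle library, 0.55 at the lower dose and 0.35 at the higher dose, with the vehicle value between the treated ones. TNFSF10 (TRAIL), the ligand of the TNFRSF10 death receptors, was at 0.02, 0.09 and 0.09 FPKM. Values this low rest on few fragments, and their error is unknown. LTB was at 0.75, 0.22 and 0.30 FPKM, lower than vehicle at both doses by log2 fold changes of -1.41 and -1.09. TNFSF15 (TL1A), a ligand of TNFRSF25, was at 0.06, 0.26 and 0.38 FPKM, higher at both doses by 1.17 and 1.58 on the log2 scale. These 2 were the only ligands past 2-fold in the same direction at both doses. Without the filter, 26.5% of all 26108 genes were more than 2-fold higher at the lower dose and 26.1% at the higher dose. More than 2-fold lower were 3.15% and 3.16%.

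Death domain receptors differed among themselves, with 4 of the 7 above vehicle at both doses and 2 below at both. Among all compared genes these shares were 63.1% and 31.9%. TNFRSF1A (TNFR1, chr12:6328757-6342114), the widely expressed TNF receptor, was at 69.56 FPKM in the vehicle library, 63.31 at the lower dose and 65.87 at the higher dose. The log2 differences from vehicle, -0.14 and -0.08, were the nearest to 0 among members above 10 FPKM, and their sign turned when the libraries were scaled to a common sum at 100 ng/mL or quantile normalized at both doses. TNFRSF10B (DR5), a TRAIL receptor, was at 18.30, 32.80 and 33.73 FPKM. Both treated libraries were above vehicle, by log2 fold changes of 0.84 and 0.88, and this was the only gene of the family above 10 FPKM on average that was higher at both doses. NGFR, the low-affinity neurotrophin receptor that stellate cells are known to express, was at 13.44, 11.27 and 10.14 FPKM, with log2 fold changes of -0.25 and -0.40. TNFRSF21 (DR6) was at 3.18, 6.45 and 5.79 FPKM, with log2 fold changes of 0.998, just under the 2-fold limit, and 0.84.

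The remaining death domain receptors averaged under 1 FPKM. FAS (chr10:88990531-89017059), the receptor of FAS ligand, was at 0.31 FPKM in the vehicle library, 1.13 at the lower dose and 0.83 at the higher dose, higher at both doses by 1.58 and 1.18 on the log2 scale. FAS overlaps 809 bases of ACTA2, the smooth muscle actin gene on the opposite strand, which was at 8.55, 8.01 and 7.74 FPKM and so was not higher in the treated libraries. Whether the libraries kept the strand is not given in the sources used here, so fragments of the overlap cannot be told apart. TNFRSF10A (DR4), the second TRAIL death receptor, was at 0.57, 0.96 and 1.33 FPKM, with log2 fold changes of 0.66 and 1.09, past 2-fold only at the higher dose, and its difference at the lower dose turned to -0.18 under quantile normalization. TNFRSF25 (DR3) was at 0.77, 0.68 and 0.79 FPKM, on either side of vehicle. The median of the 7 death domain receptors was 0.66 at the lower dose and 0.84 at the higher dose, beside 0.62 and 0.61 for all compared genes. It was 0.35 and 0.38 over the 4 with a mean of at least 1 FPKM, 0.10 and 0.19 under quantile normalization, and 0.11 and -0.03 with a trend on transcript length removed.

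Decoy receptors were low, and both that could be compared were higher in the treated libraries, as were 63.1% of all compared genes. TNFRSF10D (DcR2), a TRAIL decoy with a truncated death domain, was at 3.56 FPKM in the vehicle library, 8.75 at the lower dose and 8.12 at the higher dose. Its log2 fold changes were 1.27 and 1.17, past 2-fold at both doses. TNFRSF11B (osteoprotegerin), the soluble decoy of RANK ligand, was at 0.52, 1.09 and 1.33 FPKM, with log2 fold changes of 0.94 and 1.21. TNFRSF10C did not exceed 0.13 FPKM. TNFRSF6B did not exceed 0.31 FPKM and lies within the readthrough gene RTEL1-TNFRSF6B on the same strand, which was at 1.20, 2.67 and 1.89 FPKM. The 4 TNFRSF10 genes are similar in sequence, and how fragments matching several of them were assigned is not given in the sources used here, so their separate levels are uncertain.

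Receptors without a death domain held the most abundant gene of the family. TNFRSF12A (Fn14, chr16:3018445-3022383), the TWEAK receptor and a growth factor inducible gene in fibroblasts, was at 197.48 FPKM in the vehicle library, 114.56 at the lower dose and 124.18 at the higher dose. Both treated libraries were well below vehicle, at 58.0% and 62.9% of its level, and the log2 fold changes were -0.79 and -0.67. This gene alone made up 35.6% of the summed FPKM of the 44 genes in the vehicle library and 25.9% and 27.1% in the treated libraries. That sum was 554.36 FPKM in the vehicle library, 441.96 at the lower dose and 458.39 at the higher dose, while the sum over all genes was 302243, 276690 and 281606.

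CD40, TNFRSF1B and LTBR, TRAF-binding receptors that signal to NF-kappaB, were all lower in both treated libraries, with smaller differences, but with the trend of all compared genes on transcript GC content (the GC trend) removed LTBR turned to 0.04 and 0.07 and TNFRSF1B was at -0.10 and -0.00064. CD40 (chr20:46118278-46129858), a costimulatory receptor, was at 31.98 FPKM in the vehicle library and at 25.35 in both treated libraries, a log2 fold change of -0.33 at each dose. TNFRSF1B (TNFR2), the TNF receptor without a death domain, was at 30.86, 22.44 and 24.25 FPKM, with log2 fold changes of -0.46 and -0.35. LTBR, the lymphotoxin receptor, was at 26.67, 22.38 and 23.04 FPKM, with -0.25 and -0.21. None of these 3 differed by as much as 2-fold, and the 2 treated libraries differed from each other by less than either did from vehicle for each of them.

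TNFRSF9 and TNFRSF19 went the other way. TNFRSF9 (chr1:7915871-7943165), a costimulatory receptor induced by NF-kappaB in many cells, was at 1.41 FPKM in the vehicle library, 4.03 at the lower dose and 3.80 at the higher dose. Its log2 fold changes of 1.45 and 1.37 averaged the highest among members with a mean of at least 1 FPKM, and lay at percentile 79.5 of all compared genes. TNFRSF19 (TROY) was at 0.90, 1.99 and 2.07 FPKM, with 1.06 and 1.12. TNFRSF14 (HVEM), the receptor of LIGHT, was at 1.47, 0.78 and 1.10 FPKM, and its treated libraries lay further apart, with log2 fold changes of -0.84 and -0.39. TNFRSF8 (CD30) and TNFRSF11A (RANK) had means between 0.5 and 1 FPKM, TNFRSF8 below vehicle and TNFRSF11A above it at both doses, neither past 2-fold. TNFRSF11A turned to -0.46 and -0.53 under quantile normalization, to -0.13 and -0.21 with the GC trend removed and to -0.03 at 100 ng/mL with the length trend removed, and TNFRSF8 turned to 0.07 at 50 ng/mL with the GC trend removed. The median of the 9 other receptors was -0.33 at each dose, and 0.07 and 0.16 over all 14. The lymphoid receptors CD27, TNFRSF13B, TNFRSF13C, TNFRSF17 and TNFRSF18 did not exceed 0.16 FPKM in any library.

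**Figure D2:**
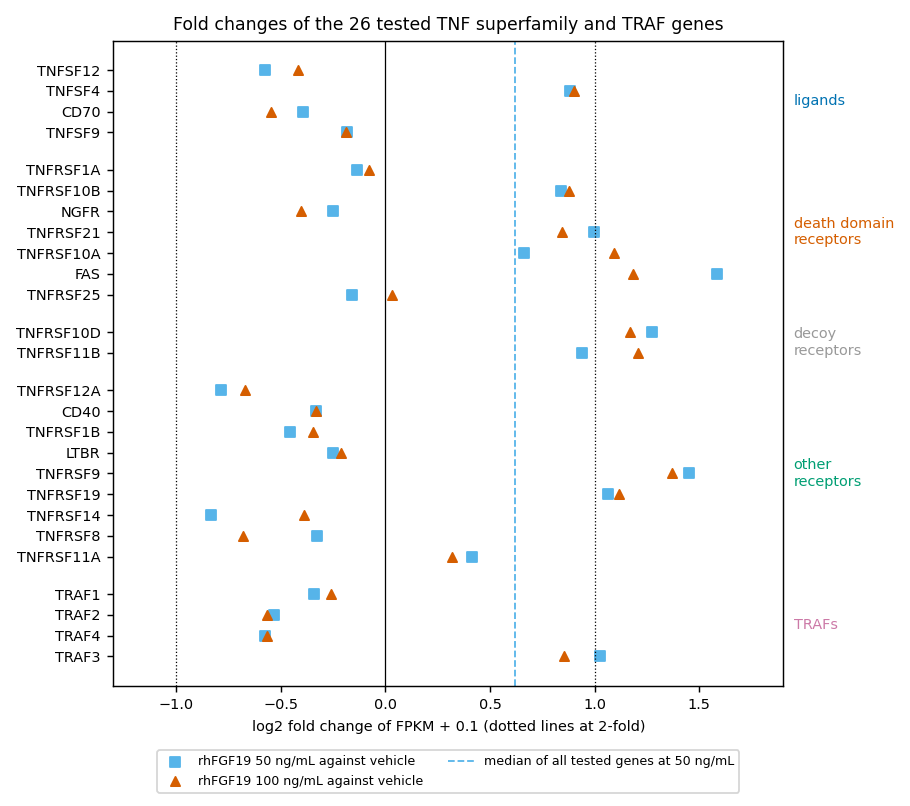
Log2 fold change of FPKM + 0.1 against vehicle for the 26 compared genes, by role (square, 50 ng/mL; triangle, 100 ng/mL). Dotted lines mark 2-fold and the dashed line the median of all compared genes at 50 ng/mL, 0.62. Points at the 2 doses lie close together for most genes and furthest apart for TNFRSF14, by 0.45, and no gene is past 2-fold below vehicle.

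TRAF1, TRAF2 and TRAF4 were lower with rhFGF19 and TRAF3 was higher. TRAF1 (chr9:120902393-120926796), an NF-kappaB target that pairs with TRAF2, was the most abundant, at 51.32 FPKM in the vehicle library, 40.52 at the lower dose and 42.86 at the higher dose, with log2 fold changes of -0.34 and -0.26. TRAF2, which brings the cIAP ubiquitin ligases to TNF receptors, was at 25.03, 17.26 and 16.90 FPKM, with -0.53 and -0.56. TRAF4 was at 24.41, 16.35 and 16.48 FPKM, with -0.58 and -0.56. For these 3 adaptors each treated library lay below vehicle, as for 31.9% of all compared genes. TRAF3 (chr14:102777449-102911500) was at 2.82, 5.85 and 5.17 FPKM, past 2-fold at the lower dose only, with log2 fold changes of 1.03 and 0.85. More than 2-fold higher at the lower dose were 39.4% of all compared genes. TRAF5 and TRAF6 averaged under 0.5 FPKM. TRAF5 was at 0.13, 0.46 and 0.40 FPKM, higher at both doses by 1.28 and 1.12 on the log2 scale. Without the filter, 26.5% of all 26108 genes were more than 2-fold higher at the lower dose and 26.1% at the higher dose. TRAF6, the adaptor shared with interleukin-1 receptors, was at 0.22, 0.58 and 0.51 FPKM. The median of the 4 compared TRAFs was -0.44 at the lower dose and -0.41 at the higher dose, but it was 0.34 and 0.30 when TRAF5 and TRAF6 were included.

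Members of high level were mostly below vehicle. Of the 11 members that averaged 10 FPKM or more, 10 were below vehicle at both doses, TNFRSF10B being the exception, as were 59.3% of all genes at that level. None of the 11 was past 2-fold, where 15.4% of all genes at that level were more than 2-fold higher at the lower dose and 14.9% at the higher dose. The median of these 11 members was -0.34 at the lower dose and -0.35 at the higher dose, beside -0.24 and -0.22 for all 3792 genes at that level. The limit of 10 FPKM was chosen after the values were seen.

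The direction also followed the base composition of the transcripts. The median transcript GC content of the 26 members was 55.6%, from 39.9% for TNFSF4 to 64.2% for TNFRSF12A, beside 51.2% for all compared genes. Across the 26 members, Spearman's rho between the GC content and the log2 fold change was -0.83 at the lower dose and -0.84 at the higher dose, and across 12397 genes it was -0.77 at each dose. Between the 2 treated libraries, rho was 0.27 over the members and 0.067 over all genes. These are descriptions across genes of the same 3 libraries, the first pair share the vehicle library, and genes are not independent replicates. The part of GC content in the differences from vehicle was not tested, and with 1 vehicle library it cannot be told apart from an effect of rhFGF19.

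Once the trend of all compared genes on GC content was removed, none of the 26 members was past 2-fold in either direction at either dose, where 3.85% of all genes were higher and 5.07% lower at the lower dose, and 3.39% and 4.51% at the higher dose. The members' medians were then -0.08 and -0.05. TNFRSF9 kept 0.28 and 0.21 on the log2 scale, and TNFRSF12A -0.29 and -0.19. FAS was at 0.30 and -0.09, and TNFRSF10D at 0.19 and 0.10. These 4 genes lay close to the values of other genes of their GC content.

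A few members stood further from genes of like composition. CD40, with a transcript GC content of 51.3%, was at -0.93 and -0.91 after the trend was removed, and its mean over both doses lay at percentile 5.52 of all compared genes. TNFSF4, higher than vehicle in the deposited values, was at -0.60 and -0.56, percentile 12.6. On the other side, TNFRSF10B was at 0.62 and 0.67, percentile 90.6, and TNFRSF10A at 0.48 and 0.92, percentile 92.0, from a level of about 1 FPKM. The death domain receptors were the only role with a median above 0 at both doses after this step, 0.31 and 0.22. That of the ligands was -0.15 and -0.19, and that of the TRAFs -0.17 and -0.19. The decoy receptors were at -0.13 and -0.03, turned from 1.11 and 1.19 in the deposited values, TNFRSF11B being at -0.45 and -0.17.

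Ligands and their receptors differed widely in FPKM, a unit divided by transcript length and library total but not adjusted for GC content. TNFSF12 and TNFRSF12A were both abundant, and the receptor's level was 7.62 times the ligand's in the vehicle library, 6.60 times at the lower dose and 6.41 times at the higher dose, both genes being lower in the treated libraries. TNF receptors were present with little TNF. TNFRSF1A was at 174 times the level of TNF in the vehicle library, 115 times at the lower dose and 188 times at the higher dose. With TNF at no more than 0.55 FPKM, the error of these ratios is unknown. TRAIL receptors were likewise present with little ligand, TNFRSF10B being at 18.30 to 33.73 FPKM and TNFSF10 at no more than 0.09. CD70 was the reverse case, at 7.59 to 11.15 FPKM with CD27 at no more than 0.10, and the locus of CD27 shares 6681 bases with the antisense gene CD27-AS1. In the pair of TNFSF9 and TNFRSF9 the order turned. The receptor was at 0.731 times the ligand's level in the vehicle library and at 2.38 and 2.26 times in the treated libraries. The transcript GC content was 57.1% for TNFSF9 and 46.1% for TNFRSF9. With the GC trend removed, the log2 fold changes were -0.06 and -0.08 for TNFSF9 and 0.28 and 0.21 for TNFRSF9. The part of GC content in the turned order was not tested. A level of mRNA says nothing of the protein at the surface.

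**Figure D3:**
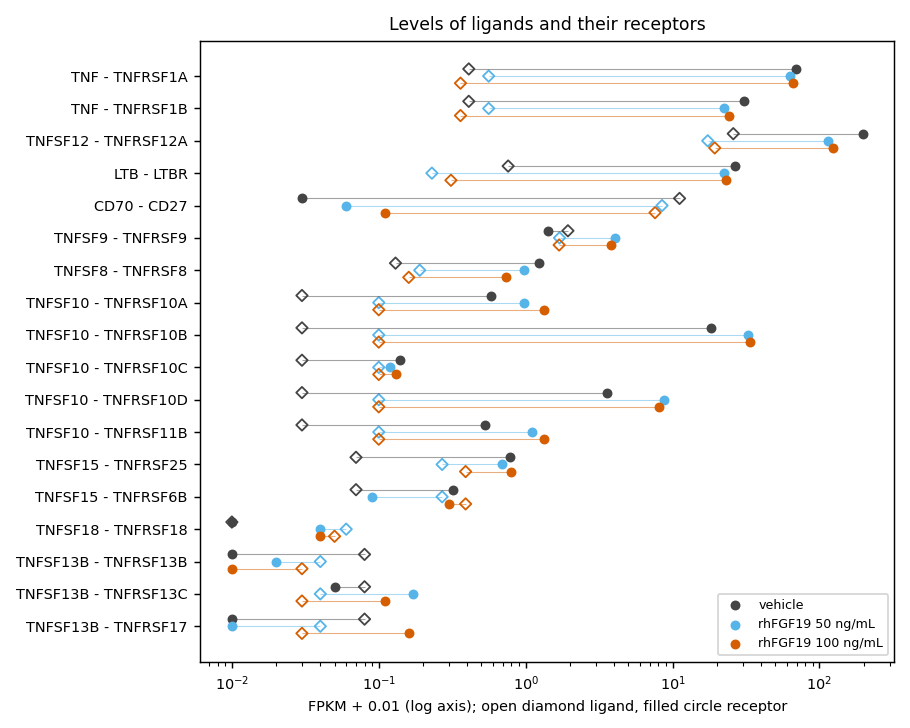
FPKM + 0.01 of ligands (open diamonds) and their receptors (filled circles) on a log axis, with 1 line per library. TNFSF12 and TNFRSF12A are both above 10 FPKM, TNF and TNFSF10 are far below their receptors, and the pair of TNFSF9 and TNFRSF9 changes order between the vehicle and the treated libraries.

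Genes that act with these receptors were examined in 6 further lists. Of 19 genes of the receptor complex and its ubiquitin machinery, all of which could be compared, 10 were more than 2-fold higher at both doses, where 36.1% of all compared genes were, and RNF31 was more than 2-fold lower at 100 ng/mL. With the GC trend removed, 0 of the 19 were more than 2-fold higher at either dose, where 3.85% and 3.39% of all genes were. RNF31 was then at -1.64 at the higher dose. In the deposited values, the list's median was 1.03 and 1.10. TAB2, an adaptor of the kinase TAK1, was the highest, at 2.27 FPKM in the vehicle library, 7.47 at the lower dose and 7.04 at the higher dose, with log2 fold changes of 1.68 and 1.59. RNF31 (HOIP), the catalytic subunit of the linear ubiquitin ligase, was the lowest, at 7.03, 4.92 and 1.83 FPKM, with -0.51 and -1.89. Its treated libraries differed by more than 2-fold from each other, as did those of no other compared gene of the 6 lists.

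Death signalling genes followed, with 6 of 12 more than 2-fold higher at the lower dose, 5 at the higher dose and none more than 2-fold lower, beside 39.4% and 38.5% higher among all compared genes. With the GC trend removed, 0 were more than 2-fold higher, where 3.85% and 3.39% of all genes were, and 5.07% and 4.51% were lower. BID, which links caspase-8 to mitochondria, was then at -1.18 and -1.19. DIABLO, an antagonist of inhibitor of apoptosis proteins, was at -1.04 and -0.93. BAX, the pore former of the mitochondrial pathway, was the lowest, at 109.74, 69.11 and 69.86 FPKM, with log2 fold changes of -0.67 and -0.65. The list's median was 1.0 and 0.84. RIPK3 was not analysed here. The 3 genes of the non-canonical NF-kappaB pathway were all lower at both doses, by a median of -0.38 and -0.41. So were 31.9% of all compared genes and 59.3% of those averaging 10 FPKM or more. RELB, the pathway's transcription factor, was at 49.72, 24.59 and 28.02 FPKM, past 2-fold at the lower dose, with -1.01 and -0.83. MAP3K14 (NIK), the kinase that TRAF3 helps to degrade, was at 27.81, 25.56 and 24.39 FPKM, with -0.12 and -0.19. With the GC trend removed, the list's medians were 0.03 and -0.03. MAP3K14 was then at 0.16 and 0.08, and RELB at -0.49 and -0.32.

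Among 4 genes of ligand and receptor shedding, 2 were more than 2-fold higher at both doses, with a median of 0.62 and 0.74, and 0 with the GC trend removed. ADAM10, a sheddase, was the highest, at 0.86, 3.28 and 3.04 FPKM, with log2 fold changes of 1.82 and 1.71, and RHBDF1 (iRhom1), a trafficking factor of the sheddase ADAM17, the lowest, at 17.53, 13.86 and 13.93 FPKM, with -0.34 and -0.33. Of 13 genes known to be induced by TNF, 9 could be compared and 4 were more than 2-fold higher at both doses, with a median of 0.83 and 0.76, and 0 with the GC trend removed. These counts of 2 and 4 also stand beside the 36.1% of all compared genes that were higher at both doses. The counts of 0 with the GC trend removed stand beside 3.85% of all genes at the lower dose and 3.39% at the higher dose. VCAM1, an adhesion molecule, was the highest, at 0.25, 1.18 and 1.0 FPKM, with 1.87 and 1.65. TNFAIP2 was the lowest, at 77.39, 71.06 and 70.03 FPKM, with -0.12 and -0.14. Of the relatives outside the name rule, 3 could be compared, and EDAR was not analysed here. EDA2R, a receptor of ectodysplasin A2, was the highest of them, at 0.50, 1.21 and 1.10 FPKM, with 1.13 and 1.0, and RELT was the lowest, at 13.10, 9.08 and 10.32 FPKM, with -0.52 and -0.34.

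The split by composition recurred in most of these lists. The median transcript GC content was 50.0% for the receptor complex list and 48.1% for death signalling, whose medians were above that of all compared genes. It was 61.6% for the non-canonical list and 61.9% for the relatives, whose medians were below 0. The TNF-induced list was at 50.0%, with medians of 0.83 and 0.76. The shedding list was at 51.7%, beside 51.2% for all compared genes, with medians of 0.62 and 0.74. Its genes ADAM10 and ADAM17, at 40.6% and 41.7% GC, were above vehicle at both doses. RHBDF1 and RHBDF2, at 63.4% and 61.7%, were below it. With the GC trend removed, the 6 medians lay between -0.13 and 0.21 at both doses. The part of GC content in them was not tested.

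**Figure D4:**
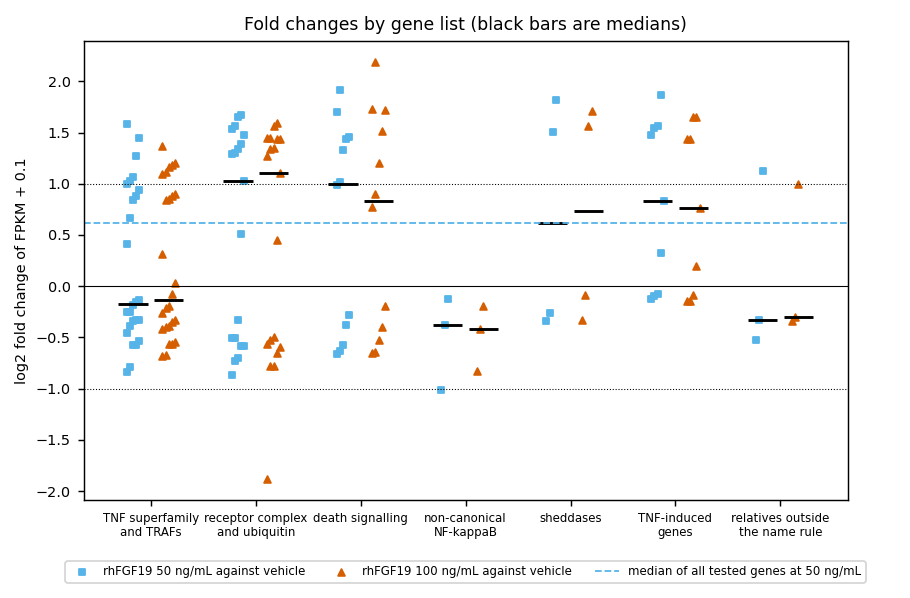
Log2 fold change of FPKM + 0.1 against vehicle for the 26 members and for the compared genes of 6 further lists (square, 50 ng/mL; triangle, 100 ng/mL; black bar, median). The dashed line is the median of all compared genes at 50 ng/mL, 0.62, and dotted lines mark 2-fold. RNF31 at 100 ng/mL is the lowest point, at -1.89.

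The comparison of 100 with 50 ng/mL leaves out the vehicle library. None of the 26 members differed by more than 2-fold between the doses, where 0.836% of all compared genes were more than 2-fold higher at 100 ng/mL and 0.884% lower. The members' median was 0.016, and that of all compared genes was 0.00 to 2 decimals. The differences ran from -0.40 for FAS to 0.45 for TNFRSF14, both at about 1 FPKM or less, and their standard deviation over the 26 members was 0.197, beside 0.342 over all compared genes. Among the 11 members of at least 10 FPKM, none differed by more than 0.16 on the log2 scale. CD40 was listed at the same value at both doses, and TNFRSF10A was higher by 0.43 on the log2 scale at the higher dose.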

How the data were processed

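Messenger RNA of 3 LX-2 cultures, 1 per condition, was selected by poly(A) and sequenced as paired ends by the authors, who deposited 1 table of FPKM values, written to 2 decimals, for 26108 genes. The submitters' processing notes name HISAT2 2.0, StringTie 1.3.0 and Bowtie 0.12.2 and the builds hg19 and mm8, without their roles. The coordinates in the table overlapped those of GRCh38 for 99.9% of 25531 genes found in GENCODE v29, including all 44 members, and are given as deposited. No counts were used, so depth and counting error are unknown.

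Only genes averaging 0.5 FPKM or more were compared as log2(FPKM + 0.1) between single libraries, past 2-fold meaning an absolute log2 fold change above 1, and no p-value was computed. Transcript GC content and length were medians over each gene's GENCODE v29 transcripts, found for 99.6% of compared genes, and their trends were subtracted after a lowess fit (span 0.3). Members averaging 1 FPKM or more were named, and of the rest those past 2-fold in the same direction at both doses and those defining the group. In each other list the genes with the highest and lowest mean log2 fold change were named, except 1 gene that is not reported here. Any other gene named, the promoter motifs and the limit of 10 FPKM were chosen after values were seen. The members and lists were chosen with earlier results of these data known. The 10 alternatives were 2 other pseudocounts, 2 other filters, 3 other scalings, removal of a trend on GC content or on length, and the mean of both rhFGF19 libraries. The procedure was tested on simulated data. The tools were statsmodels 0.14.6, pandas 2.3.3, matplotlib 3.10.9 and NumPy 2.4.6 under Python 3.11.15.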

Additional observations from a re-analysis of the deposited data

How the results depend on the processing

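No paired analysis was possible because each condition had 1 library, and for the same reason no library could be left out. The counts of members past 2-fold moved with most settings, from 5 higher at 50 ng/mL and 6 at 100 ng/mL. They were 2 and 0 with a pseudocount of 1, where 17.6% and 16.7% of all compared genes were higher. At 100 ng/mL they were 3 with a mean of at least 1 FPKM, beside 36.9% of all genes. After scaling to a common sum (TPM) they were 8 at 50 ng/mL, beside 44.4%. With the GC trend removed they were 0 and 0, beside 3.85% and 3.39%. With the median ratio to vehicle set to 0, 3 and 2 members were higher, 2 were lower at 50 ng/mL, and the member medians were -0.38 and -0.35. Of all compared genes, 30.4% and 29.9% were then higher, and 6.29% lower at 50 ng/mL. Quantile normalization gave 0 and 0 higher and 3 and 3 lower, where 9.49% and 8.68% of all compared genes were higher and 9.94% and 9.22% lower. Removal of a trend on transcript length gave 2 and 0 higher and 9 and 6 lower, with medians of -0.67 and -0.58, where 14.1% and 13.6% of all compared genes were higher and 16.4% and 15.3% lower, with medians of 0.046 and 0.044. Without a filter on low values, 8 and 10 members were higher, 2 and 1 lower, and 3 were higher at 100 than at 50 ng/mL. The member medians turned to 0.13 and 0.11. Of all 26108 genes, 26.5% and 26.1% were then higher, 3.15% and 3.16% lower, and 4.03% higher at 100 than at 50 ng/mL. The cause was not tested for the scalings and trends. The filter and the pseudocount act on members of low level. With a pseudocount of 0.01, 7 and 6 members were higher, beside 41.4% and 40.4% of all compared genes, and the member medians were -0.18 and -0.14. The mean of both rhFGF19 libraries gave 5 higher, beside 39.3%, and a member median of -0.15. Scaling moved the median of all compared genes at 50 ng/mL from 0.62 to 0.77 (TPM), 0.40 (median ratio) and 0.11 (quantile). Of the 20 members with a mean of at least 1 FPKM, TNFRSF1A changed the sign of its mean log2 fold change under TPM and quantile scaling. NGFR, LTBR and TNFSF4 did so with the GC trend removed, and none under the other alternatives. At 100 ng/mL alone, TNFRSF14 turned to 0.08 with the GC trend removed and TNFRSF21 to -0.03 with the length trend removed. Among the members of lower level that were past 2-fold, FAS turned to -0.09 at 100 ng/mL and TNFRSF11B to -0.45 and -0.17 with the GC trend removed, and TNFRSF10A turned to -0.18 at 50 ng/mL under quantile normalization. With 1 library per condition and no counts, values below about 1 FPKM cannot be bounded.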

Other observations

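Several members lie next to each other in the genome, and some neighbours were alike in direction and others not. TNFSF9 and CD70, 47.3 kb apart on chromosome 19, were both below vehicle at both doses, as were TNFRSF1A and LTBR, 32.9 kb apart on chromosome 12, and TNFRSF8 and TNFRSF1B, 22.8 kb apart on chromosome 1. LTA, TNF and LTB, within gaps of 1.24 and 2.19 kb on chromosome 6, were all listed at 0.75 FPKM or less in each library, and LTA was above vehicle, by 0.13 and 1.16 on the log2 scale, where LTB was below it. TNFRSF10C was at 0.13, 0.11 and 0.12 FPKM, with differences of -0.13 and -0.06, while its neighbours TNFRSF10B and TNFRSF10D, 33.9 and 18.1 kb away, were above vehicle at both doses. TNFSF4 was at 5.95 to 11.19 FPKM, while TNFSF18, 133 kb away on chromosome 1, did not exceed 0.05. These pairs were picked from the values, and no comparison with other neighbouring genes was made.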
